A study of Bos taurus with 4 samples.

Results

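Neutrophils crawl out of the blood on an actin cytoskeleton that they rebuild continuously, and 6 genes of that machinery were followed here in bovine neutrophils around calving. They are TPM3, MYH9, WIPF1, MSN, COTL1 and RAC1, a list fixed by function and found through the platform's gene annotation, updated by gene ID. The rule uses no measured value, although earlier results of these data were known when the list was drawn up. They are 6 of the 444 genes named on the array and hold 7 of its 1296 elements, an element being 3 consecutive spots. WIPF1 has 2 elements and each other gene has 1, and all 84 spots carried a value. Actin filaments grow at the front of a crawling cell under the control of Rac GTPases, which act through WASP-family proteins on the branching Arp2/3 complex. Tropomyosins stabilise older filaments, myosin II contracts them at the rear, and proteins of the moesin family tie them to the membrane. In neutrophils the same machinery serves adhesion, passage through the vessel wall and phagocytosis.

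Purified blood neutrophils of parturient cows were collected on day -7, day 0, day 0.25 and day 1 relative to calving on day 0, and RNA of 4 cows was pooled for each day, per the labels. The sources used here do not give the breed, age or treatment of the cows, or whether the same cows served each day. The pools were hybridised on 4 2-channel cDNA arrays that form a closed loop. Each array is named here by the days of its channel 1 and channel 2: the 0.25/-7 array, the 1/0 array, the -7/1 array and the 0/0.25 array. With 1 pool per day there were no replicate pools, so no test here measures the spread between cows. Which dye each channel carried and which channel is the numerator are not given, so the ratios are read as channel 1 divided by channel 2, which is an assumption. A signed difference between days holds only if that is true of all 4 arrays, and for this reason values are called positive or negative and not higher or lower.

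All values are log2 ratios with the array's median element set to 0. They were narrow: the SD over all elements was 0.046 for the 0.25/-7 array, 0.018 for the 1/0 array, 0.032 for the -7/1 array and 0.015 for the 0/0.25 array. After centring, the 28 element values of the 6 genes correspond to ratios from 0.952 to 1.03. Whether these are ratios of untransformed intensities is not stated, so a value here is no measure of the fold by which a transcript differed. Of 24 neutrophil marker genes none is named on the array, and the lists for platelets and red cells, monocytes, lymphocytes of the T and NK lines, and eosinophils with basophils are likewise unrepresented. The labelled cell type could therefore not be checked against its own markers. Of the B cell list CD79B, a chain of the B cell receptor complex, was present, with values of -0.0037, -0.0051, 0.022 and 0.012 in the order of the arrays above, and 3 class II genes ranged from -0.067 to 0.042 over the arrays. The part of other cells in the results below was not tested. In such pooled RNA, fewer cells of a type and less RNA per cell cannot be told apart.

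None of the 7 elements passed the test for a difference among the 4 pools. In a limma fit of all 4 arrays, the F test for any difference among the pools gave each of them an adjusted p of 1 (Benjamini-Hochberg over 1295 elements), and none reached an unadjusted p below 0.05. Over all elements 7 passed, 0.541% of those tested, and 93 had an unadjusted p below 0.05. By the size of F, RAC1 stood highest of the 7 (F = 1.66, rank 221 of 1295), followed by COTL1 (1.28, rank 292) and the second WIPF1 element (1.17, rank 319). The first WIPF1 element stood lowest (0.166, rank 1047). The 6 genes were thus spread through the ranking and did not gather at its top. The values of each spot follow, in the order of the genes' roles.

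**Figure D1:**
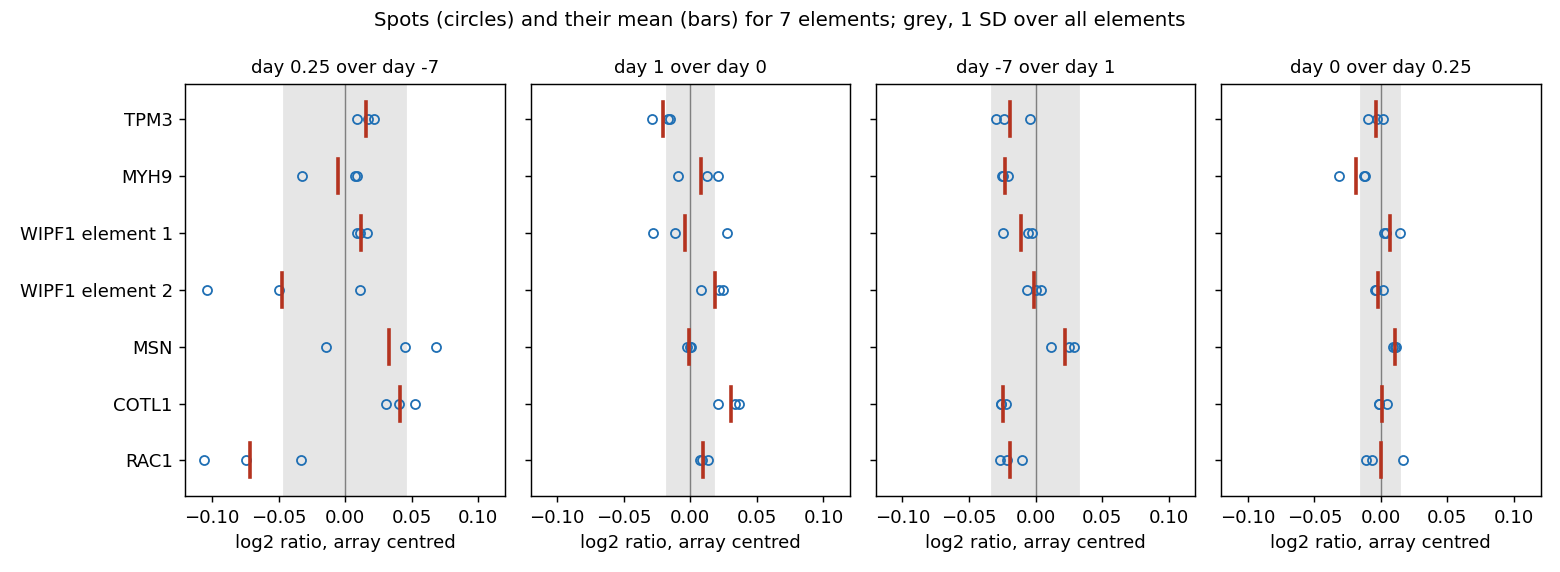
Log2 ratios (x axis, array centred) of the 3 spots of each of the 7 elements (y axis) on the 4 arrays, with circles for spots, bars for their mean and a grey band for 1 SD over all elements of that array. On the -7/1 array every element but MSN has a negative mean, and the widest spreads between spots are those of RAC1, MSN and the second WIPF1 element on the 0.25/-7 array.

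TPM3 encodes a tropomyosin, a coiled-coil protein that lies along the actin filament and governs which other proteins reach it. Its 3 spots stood at 0.0092, 0.021 and 0.0175 on the 0.25/-7 array (mean 0.016 ± 0.0062, SD over 3 spots). On the 1/0 array they stood at -0.0155, -0.029 and -0.0165 (mean -0.020 ± 0.0075). All 3 spots had one sign on each of these arrays, positive on the former and negative on the latter. On the -7/1 array they were also all negative, at -0.0041, -0.029 and -0.024 (mean -0.019 ± 0.013), while on the 0/0.25 array the mean was -0.0037 ± 0.0054 with spots on both sides of 0. Of all elements 10.6% lay at or below the TPM3 value on the 1/0 array. No TPM3 value passed the test over the spots of its array, where the lowest adjusted p was 0.0957 (limma), on the -7/1 array.

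COTL1 encodes coactosin-like protein, a small binder of filamentous actin that is abundant in leukocytes and also binds 5-lipoxygenase, the first enzyme of leukotriene synthesis. Its spots lay close together on every array. They stood at 0.0405, 0.031 and 0.053 on the 0.25/-7 array (mean 0.041 ± 0.011) and at 0.033, 0.021 and 0.037 on the 1/0 array (mean 0.030 ± 0.0084). On the -7/1 array they stood at -0.026, -0.022 and -0.026 (mean -0.025 ± 0.0021), and on the 0/0.25 array the mean was 0.0006 ± 0.0036. On the first 3 of these arrays all spots had one sign, and the ratio was positive whenever the later pool was in channel 1 and negative when the earlier one was. The value on the 1/0 array stood at or above 95.4% of all elements, and that on the 0.25/-7 array at or above 90.7%. Over the spots of the array, COTL1 passed on the -7/1 array (adjusted p = 0.0163, limma) but not on the 1/0 array (0.136) or the 0.25/-7 array (0.171).

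MYH9 encodes the heavy chain of nonmuscle myosin IIA, the motor that contracts actin at the rear of a moving leukocyte. On the 0.25/-7 array its spots disagreed, at 0.0078, 0.0093 and -0.033 (mean -0.0052 ± 0.024). They disagreed on the 1/0 array too, at 0.012, -0.0089 and 0.021 (mean 0.0081 ± 0.015). On both other arrays they agreed, at -0.0205, -0.024 and -0.025 on the -7/1 array (mean -0.023 ± 0.0025) and at -0.012, -0.013 and -0.032 on the 0/0.25 array (mean -0.019 ± 0.011). The first of these means passed over its spots (adjusted p = 0.0173, limma) and the second, with 10.1% of all elements at or below it, did not (0.186).

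WIPF1 encodes WIP, which binds the WASP protein and protects it from degradation, and WASP in turn activates the Arp2/3 complex. Its 2 elements gave different values. The first stood at 0.012 ± 0.0037 on the 0.25/-7 array, with all 3 spots positive. The second stood at -0.0475 ± 0.0575 there, with spots at 0.011, -0.104 and -0.049. The elements also took opposite signs on the 1/0 array (-0.0039 ± 0.028 and 0.018 ± 0.0091) and on the 0/0.25 array (0.0069 ± 0.0063 and -0.0024 ± 0.0033). Both were negative on the -7/1 array, at -0.011 ± 0.012 and -0.0008 ± 0.0055. Such disagreement was common: of the 32 genes with several elements, 11 had one sign at all their elements on the 0.25/-7 array, 13 on the 1/0 array, 21 on the -7/1 array and 15 on the 0/0.25 array. On the 0.25/-7 array the WIPF1 elements lay 0.06 apart, while the median range over the elements of the 32 genes was 0.051. Neither WIPF1 element passed on any array. As the mean of its elements, WIPF1 stood at -0.018, 0.0071, -0.0058 and 0.0022 in the order of the arrays.

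MSN encodes moesin, which links the cortical actin network to membrane proteins and is the leading member of its family in leukocytes. It was the 1 element of the set with a positive value on the -7/1 array, where its spots stood at 0.025, 0.029 and 0.0115 (mean 0.022 ± 0.0091, adjusted p = 0.042, limma over spots). On the 0/0.25 array the spots were nearly equal, at 0.011, 0.011 and 0.0094 (mean 0.010 ± 0.0009), without passing (adjusted p = 0.181). On the 1/0 array it stood at -0.0007 ± 0.0017 (adjusted p = 0.944). On the 0.25/-7 array the mean was 0.033 ± 0.043, with spots at 0.045, 0.068 and -0.014, so this larger mean came with a spread greater than itself.

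RAC1 encodes a small GTPase that drives the sheet-like protrusions at the front of migrating cells; neutrophils also carry its close relative RAC2, which is not named on this array. RAC1 had the most negative value of the set, on the 0.25/-7 array, with spots at -0.106, -0.074 and -0.033 (mean -0.071 ± 0.037). Of all elements 5.87% lay at or below this mean. The 3 spots were all negative, yet the mean did not pass over its spots (adjusted p = 0.185, limma). On the -7/1 array RAC1 stood at -0.019 ± 0.0086 with 3 negative spots, just past the threshold (adjusted p = 0.0494). The 1/0 array gave 0.0098 ± 0.0032 with 3 positive spots (adjusted p = 0.297), and the 0/0.25 array gave -0.0002 ± 0.015 with spots on both sides of 0.

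The -7/1 array was the only one of the 4 on which any of the 7 elements passed over its spots. There 4 of 7 passed (COTL1, MYH9 and RAC1 with negative values and MSN with a positive one), against 42.2% of all 1296 elements (547, with 21.1% positive and 21.1% negative). A share of 4 in 7 is near that background, and the test measures only the spread between spots of a single hybridisation. None of the 4 elements passed when any 1 of the 3 spots was left out, and then no element of the whole array did either. On the other arrays 0 of the 7 passed in limma, where the background was 0% on the 0.25/-7 array, 0.0772% on the 1/0 array and 0% on the 0/0.25 array. At an unadjusted p below 0.05 these arrays had 2, 3 and 2 of the 7, against 253 of 1292, 254 of 1296 and 302 of 1296 elements.

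The sign on the -7/1 array leaned one way in the set. Of the 7 elements 6 were negative, with a median of -0.019 and a range from -0.025 to 0.022, and by gene 5 of the 6 were negative. One of the 6 elements, the second of WIPF1 at -0.0008, stood at 0.0006 with the median of its spots. Over all elements 50% were positive by construction, and of the 443 named genes with a value on all arrays 61.4% were positive (median 0.0077). Such counts over 6 genes were not tested. All the 7 values lay within 1 SD of that array, which 23.7% of all elements exceeded. In absolute size 5 of the 7 were above the median absolute value over all elements there (0.0188). On the other arrays the signs were mixed, with 4 of 7 positive on the 0.25/-7 array, 4 on the 1/0 array and 3 on the 0/0.25 array. The 3 spots of an element shared one sign in 17 of the 28 element values, and in 6 of 7 on the -7/1 array (69.5% of all elements there). They did so for 4 of 7 on the 0.25/-7 array (48.9%), 4 on the 1/0 array (46.5%) and 3 on the 0/0.25 array (49.1%).

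The loop fit combines the arrays into differences between pools. For day 0 minus day -7, which no array measured directly, the 7 values ran from -0.034 (second WIPF1 element) to 0.026 (TPM3), with a median of 0.011, and none passed, against 0.309% of all elements (4 of 1295). At an unadjusted p below 0.05 there were 0 of the 7 and 78 over all elements. No difference between calving and a week before it was thus past the threshold in these genes, at an SE of 0.025 to 0.028. TPM3 stood at 0.026 ± 0.026 (SE, adjusted p = 0.993), COTL1 at 0.018 ± 0.026, and RAC1 at -0.031 ± 0.028.

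For day 0.25 minus day -7, none of the 7 passed either, while 2.01% of all elements did (26 of 1295). RAC1 was the most negative, at -0.051 ± 0.024 (SE, unadjusted p = 0.0572, adjusted p = 0.433, limma), the lowest adjusted p of any difference in the set. The second WIPF1 element stood at -0.039 ± 0.022 (adjusted p = 0.573) and the first at 0.011 ± 0.022, so no direction could be given for this gene. COTL1 (0.0295 ± 0.023), TPM3 (0.023 ± 0.022), MSN (0.017 ± 0.023) and MYH9 (0.0046 ± 0.0225) were positive, with unadjusted p from 0.22 to 0.843. At an unadjusted p below 0.05 there were 0 of the 7 and 157 over all elements.

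For day 1 minus day -7 COTL1 had the largest value, 0.0365 ± 0.023 (SE, unadjusted p = 0.135, adjusted p = 1), at or above 95.4% of all elements. The other 6 elements ran from -0.0073 to 0.014, with MYH9 at 0.014 ± 0.0225, TPM3 at 0.012 ± 0.022 and RAC1 at -0.0009 ± 0.024. None of the 7 passed, against 0.309% of all elements (4 of 1295), and 0 of the 7 and 73 of all elements had an unadjusted p below 0.05. The 3 differences share the day -7 pool and are not independent of one another. COTL1, TPM3 and the first WIPF1 element were positive in all 3 of them, RAC1 and the second WIPF1 element were negative in all 3, and MYH9 and MSN had both signs. With 1 spot or 1 array left out these signs did not all hold. COTL1 then reached -0.0056 for day 0 and -0.0062 for day 0.25, and TPM3 reached -0.0079 for day 1. RAC1 reached 0.0096, 0.0098 and 0.0193 for day 0, day 0.25 and day 1, and the second WIPF1 element reached 0.0008 for day 1.

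**Figure D2:**
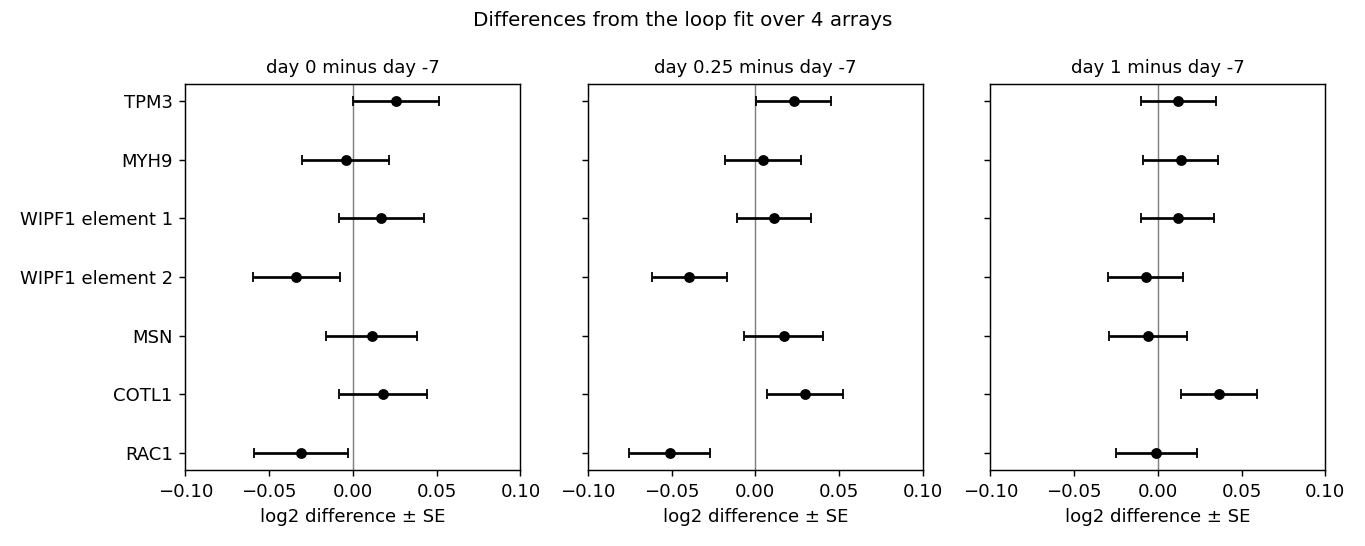
Log2 differences (x axis) of day 0, day 0.25 and day 1 from day -7 for the 7 elements (y axis), estimated from the 4 arrays with limma, with bars of 1 SE. The values run from -0.051 (RAC1, day 0.25) to 0.0365 (COTL1, day 1), and none passed the threshold.

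Each pair of pools that shares an array is also connected through the other 3 arrays, which gives a second estimate from different arrays. The 2 estimates had the same sign in 11 of 28 cases in the set. By array they did so for 3 of 7 elements on the 0.25/-7 array (53.1% of all elements), 5 on the 1/0 array (43.2%), 2 on the -7/1 array (43.9%) and 1 on the 0/0.25 array (41%). For RAC1 the direct ratio on the 0.25/-7 array was -0.071 and the other 3 arrays gave 0.0098. The RAC1 difference for day 0.25 thus rested on the direct array. The -7/1 pair of RAC1 likewise gave -0.019 directly and 0.062 through the other arrays. For COTL1 the sign differed in 3 of the 4 pairs: 0.041 and -0.0062 for 0.25/-7, 0.030 and -0.017 for 1/0, and 0.0006 and -0.047 for 0/0.25. The -7/1 pair gave -0.025 and -0.072, with one sign.

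The gap between the 2 estimates is the sum of the 4 ratios around the loop, which is 0 when all arrays run the same way and bias and noise are absent. It was smallest for the first WIPF1 element, at 0.0043, whose 4 pairs all agreed in sign. TPM3 stood at -0.027, the second WIPF1 element at -0.0325, MYH9 at -0.039 and COTL1 at 0.0475. RAC1 had the widest sum of the set at -0.081, and 83.8% of all elements had a sum of that size or smaller, with MSN next at 0.0645. The SD of the sum over all elements was 0.061, so every gene of the set but RAC1 and MSN lay within 1 SD. For RAC1, MSN, COTL1, MYH9 and TPM3 this sum was larger in size than the difference of any day from day -7 in the fit. The 2 are not on one scale, since the sum adds up the noise of all 4 arrays. A constant channel bias would also enter the sum but cancel from the fitted differences.

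**Figure D3:**
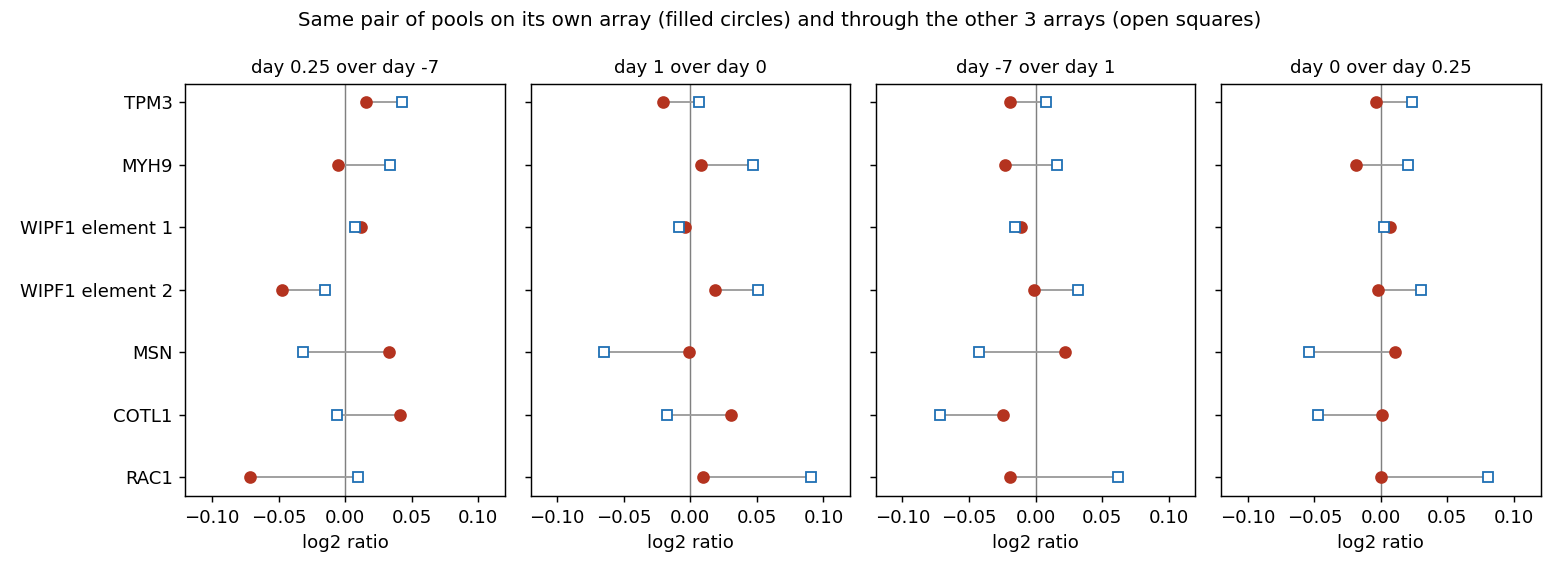
Log2 ratio (x axis) of each pair of pools for the 7 elements (y axis), measured on its own array (filled circles) and through the other 3 arrays (open squares), with a line for the gap. The gap is shortest for the first WIPF1 element (0.0043) and longest for RAC1 (-0.081 as a loop sum).

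The direction of the arrays bears on these differences. With the sign of the 1/0 array turned, the 7 elements kept their sign in 6, 7 and 7 cases for day 0, day 0.25 and day 1 minus day -7. With the 0.25/-7 array turned they did so in 2, 1 and 5 cases, and with the -7/1 array turned in 6, 6 and 2. In the former case RAC1 stood at 0.056 for day 0.25 minus day -7, and in the latter COTL1 stood at -0.0004 for day 1 minus day -7. With the 0/0.25 array turned the counts were 6, 6 and 7. No element of the set passed under any of these turns, in the F test or in a difference. Over all elements 46 passed the F test with the 1/0 array turned, against 7 unturned, and 0 with any other array turned. For day 0.25 minus day -7 these counts were 84, 26 and 0. Which direction each array has was not tested.

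Further genes of actin remodelling were taken from lists of 227 genes, of which 12 are named on the array, the 6 above included. No actin, crosslinker, bundler, severing or capping protein of these lists is named there. None of the 12 passed the F test of the loop, beside 2 of the 443 named genes. On the 0.25/-7 array, 4 of the 12 were positive (median -0.024) against 47.4% of named genes (median -0.0017). The 6 genes above had 3 positive there (median 0.0054) and the other 6 had 1 (median -0.032). On the -7/1 array, 2 of the 12 were positive (median -0.016) against 61.4% (median 0.0077). The 6 genes above had 1 positive there (median -0.019), as did the other 6 (median -0.013). On the 1/0 array and the 0/0.25 array, 9 and 7 of the 12 were positive, against 63.2% and 66.6%. These counts were not tested.

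Among filament-side proteins HCLS1, the haematopoietic relative of cortactin, stood at -0.031, 0.0098, -0.0060 and 0.0089 in the order of the arrays. WASF2, the WAVE-family activator of Arp2/3 downstream of Rac, stood at -0.045, -0.011, -0.012 and 0.020. Neither passed on any array. SEPTIN7, a filament-forming GTPase of the cell cortex, stood at 0.0067, 0.014, -0.0185 and 0.012, and passed over spots on the -7/1 array (adjusted p = 0.0379, limma), as did GIT1, a scaffold of Rac signalling at adhesions, which was positive there (0.040, adjusted p = 0.0148). GIT1 stood at -0.032, 0.011 and 0.0037 on the others. In all 6 of the 12 genes passed on that array, against 223 of the 443 named genes. DYNC1I2, the 1 gene of a microtubule list that is named, stood at 0.0074, 0.027, 0.032 and 0.0067, and did not pass.

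**Figure D4:**
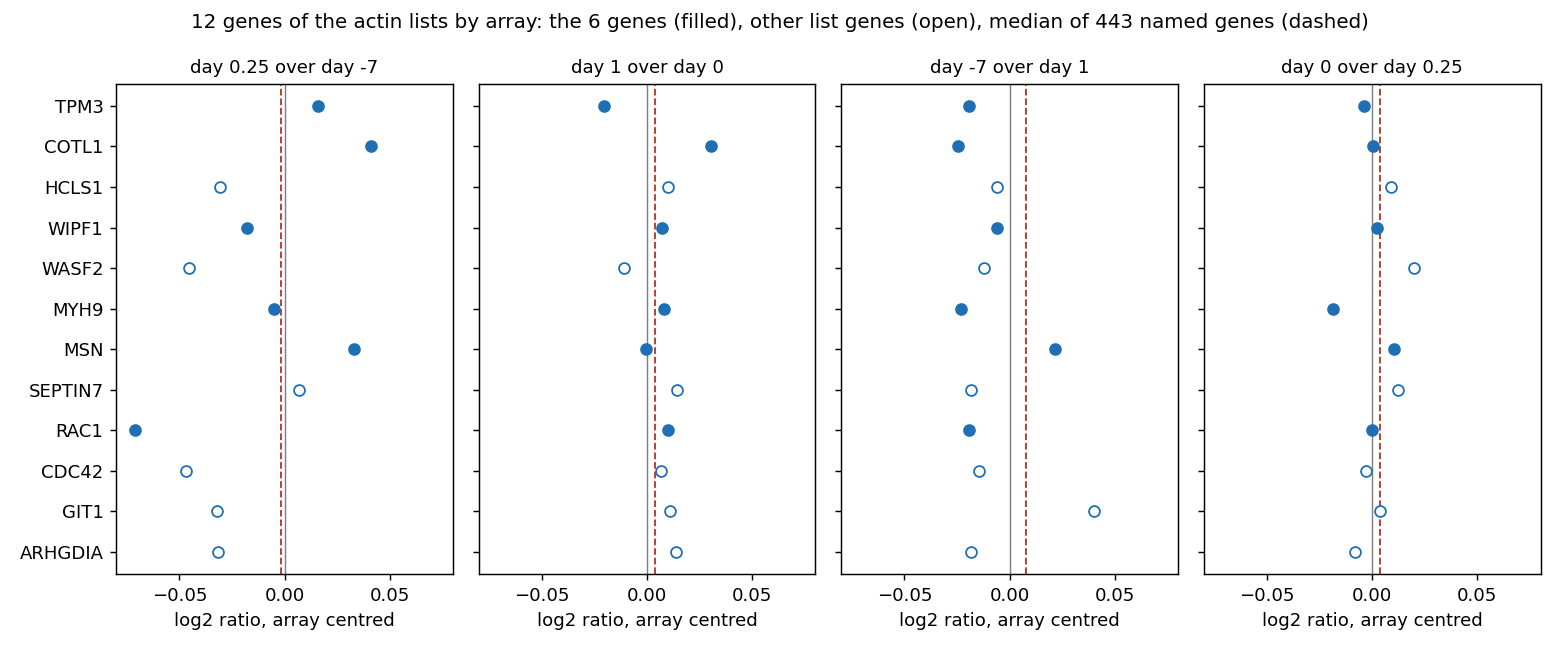
Log2 ratios (x axis, array centred) of the 12 named genes of the actin lists (y axis) on the 4 arrays, filled for the 6 genes and open for the others, with a dashed line at the median of 443 named genes and WIPF1 as the mean of its 2 elements. On the -7/1 array, MSN and GIT1 are the 2 positive genes.

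Across the 4 arrays, each gene was set against the other named genes by Euclidean distance, with each array divided by its SD over elements. For RAC1 the nearest were FOXO3 (0.554), PXK (0.58) and CDC42 (0.606), where the median distance to all named genes was 2.22. CDC42, a small GTPase of cell polarity, stood at -0.047, 0.0064, -0.014 and -0.0028, beside -0.071, 0.0098, -0.019 and -0.0002 for RAC1. Both thus had their largest deviation on the 0.25/-7 array, the array with the widest SD over elements (0.046). COTL1, MSN and both elements of WIPF1 also had theirs there, while TPM3 and MYH9 did not. CDC42 did not pass on any array. For COTL1 even the nearest gene, IER5, was at 0.805, followed by FIBP (0.912) and TRANK1 (1.00), with a median distance of 2.54. For MYH9 the nearest was the glycolytic enzyme PKM (0.546), then ARF3 (0.674) and LY6E (0.679). TPM3 was nearest to LOC507247 (0.383), CUL4B (0.615) and ATP6V1A (0.63), WIPF1 to ZFAND3 (0.272), ITPRIP (0.378) and CXXC5 (0.386), and MSN to AARSD1 (0.411), XYLT2 (0.428) and SUPT3H (0.551). These likenesses are over 4 arrays that share the same pools and describe only these arrays. Among the 6 genes themselves the closest pair was WIPF1 and RAC1 (1.26, with 15.2% of all pairs of named genes as close or closer). WIPF1 entered as the mean of its 2 elements, at 0.012 and -0.0475 on the 0.25/-7 array, where RAC1 stood at -0.071. Its median distance to all named genes was 1.54, the lowest of the 6 genes, so this closeness is not particular to RAC1. The farthest pair was TPM3 and COTL1 (2.92, with 77.5%), so the 6 genes were not uniformly alike.

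Position in the element list moved with some values. The running median over 27 elements stood, for the -7/1 array, at 0.0091 around MYH9, 0.012 around RAC1, 0.013 around MSN, -0.0060 around TPM3 and 0.0007 around COTL1. With that median subtracted, MSN no longer passed on this array (0.0090, adjusted p = 0.279, limma over spots), while COTL1, MYH9 and RAC1 did and the second WIPF1 element newly passed at -0.019 (adjusted p = 0.0498). The background was then 24.5% of elements. MSN also missed the threshold without centring (0.020, adjusted p = 0.0517). On the 0.25/-7 array the most negative values of the set had negative neighbours in the list. The second WIPF1 element (-0.0475) lay between unnamed elements at -0.141 and -0.080, and RAC1 (-0.071) lay between an unnamed element at -0.014 and PFKL, a glycolytic enzyme, at -0.089. The running median there was -0.0036 around the former and -0.0067 around the latter. The most positive values of the set on that array did not have only positive neighbours. COTL1 (0.041) lay between unnamed elements at -0.0005 and -0.0685, and MSN (0.033) between unnamed elements at -0.0047 and 0.027. These neighbours are given for their position, and their part in the values was not tested.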

How the data were processed

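The authors deposited 1 log10 ratio per spot for 3888 spots on each of 4 2-channel cDNA arrays, as the values show: raised to base 10, 99.8% to 100% of them fall on multiples of 0.0001 (tolerance 2% of that step), against 3.52% to 3.99% as log2 ratios. Column medians were 0.00139, 3e-07, -0.000782 and 8.73e-05, all near 0, and whether the authors centred them is not stated. The sources used here do not give the scanner, background correction or numerator. With no intensities at hand, signal over background could not be assessed, and precision is limited by the number of arrays.

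For this report the values were turned into log2 ratios, the 3 spots of an element averaged and each array centred on its median element (-0.00213 to 0.00316). The array of day 0.25 against day -7 lacks 20 spot values, leaving 1295 elements with a value on all arrays and 1292 on that array with at least 2 spots. The annotation names 1 gene for 486 elements, several for 9 and none for 801. For names alone, 485 of the 486 were found by gene ID in the bovine table (ARS-UCD2.0) and the other through a synonym. Differences came from limma 3.58.1 (R 4.3.3), fitted to the loop with 1 residual degree of freedom plus 10.9 from moderation. Each array was also tested alone over its 3 spots. Both used Benjamini-Hochberg adjustment over all elements at 0.05, and the scripts were tested on simulated data. Figures used matplotlib 3.10.9 (Python 3.11.15).

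The genes, lists and tests were chosen with earlier results of these data known. List genes were named by the largest F (at most 2 per list) or by passing, and alike genes as the nearest 3. Alternatives were centring, scaling, weighting, the spot summary, spots or arrays left out, a running median, named elements only and turned signs.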

Additional observations from a re-analysis of the deposited data

How the results depend on the processing

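In the loop fit the count of the 7 elements past the threshold was 0 in the F test and in each difference under all 13 alternatives, and the lowest adjusted p of a difference ran from 0.213 (second WIPF1 element, first spots left out) to 1 (arrays scaled). On the -7/1 array the count of 4 over spots became 0 with any 1 spot left out. The count over all elements there then fell from 547 to 0 as well, so this setting says nothing particular to the set. The count of 4 stood at 3 without centring, against 41.2% of all elements. After the running median it was 4, with the second WIPF1 element in place of MSN, against 24.5%. With named elements only it was 4, against 56.6% of those elements. Uncalled values near 0 changed sign. For day 0 minus day -7 MYH9 stood at 0.0025 with the median of the spots, 0.0051 after the running median and 0.0007 with weighted arrays, and COTL1 at -0.0001 with scaled arrays. For day 0.25 minus day -7 MSN stood at -0.0038 with weighted arrays. For day 1 minus day -7 RAC1 stood at 0.0017 without centring, 0.0054 with scaled arrays and 0.0050 after the running median, which also moved the second WIPF1 element to 0.0038 there and MSN on the 1/0 array to 0.0025. RAC1 on the 0/0.25 array stood at 0.0001 without centring. The median of the spots also turned the sign of 4 single-array values. MYH9 then stood at 0.0067 on the 0.25/-7 array and MSN at 0.0005 on the 1/0 array. The second WIPF1 element stood at 0.0006 on the -7/1 array and COTL1 at -0.0013 on the 0/0.25 array. With 1 spot or 1 array left out (arrays without a test), the ranges that crossed 0 were, for day 0, day 0.25 and day 1 minus day -7, -0.0239 to 0.0152, -0.0052 to 0.0339 and -0.0158 to 0.0233 for MYH9, -0.0211 to 0.0434, -0.0316 to 0.0329 and -0.0218 to 0.0427 for MSN, and -0.0714 to 0.0096, -0.0712 to 0.0098 and -0.0616 to 0.0193 for RAC1. They were -0.0056 to 0.0419 and -0.0062 to 0.0413 for COTL1 at day 0 and day 0.25, and at day 1 -0.0079 to 0.0191 for TPM3 and -0.0317 to 0.0008 for the second WIPF1 element. With 1 spot left out, single-array values ranged from -0.0127 to 0.0078 (MYH9, 0.25/-7 array), -0.019 to 0.0081 (first WIPF1 element, 1/0 array), -0.0013 to 0.0004 (MSN, 1/0 array), -0.0021 to 0.0015 (second WIPF1 element, -7/1 array), -0.0089 to 0.0048 (RAC1, 0/0.25 array) and -0.0019 to 0.0015 (COTL1, 0/0.25 array). The causes were not tested. No paired analysis was possible because each group is 1 array and the labels give no replicate numbers that could pair arrays.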
